A study of Mus with 5 samples.

Results

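Binding of the retinoic acid (RA) receptor RARα and of the transcription factor BATF was described at the genes of 10 costimulatory receptors, Cd28, Icos, Cd27, Tnfrsf4 (OX40), Tnfrsf9 (4-1BB), Tnfrsf18 (GITR), Tnfrsf1b (TNFR2), Cd226, Slamf6 and Cd44. A peak was taken as a member's peak when the gene column of the authors' annotation named that gene, alone or among others. This gave 78 of the 27480 peaks in 4 lists: 54 of 15812 for BATF in the control, 21 of 9899 for BATF with RA, 3 of 1172 for RARα in the control and 0 of 597 for RARα with RA. The members had not been chosen on measured values, although earlier results from these data were known.

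Costimulatory receptors are surface proteins that add to the signal of the T cell receptor, and a CD8 T cell that meets its antigen needs them to expand, survive and form effector and memory cells. CD28 and ICOS belong to the immunoglobulin superfamily and recruit PI3-kinase, whereas CD27, OX40, 4-1BB, GITR and TNFR2 belong to the TNF receptor superfamily and signal through TRAF adapters to NF-κB. CD226, SLAMF6 and CD44 are adhesion and accessory receptors that tune contact with the target cell and the activation state. BATF is an AP-1 family factor that rises on T cell activation and binds together with JUN and IRF proteins, and RARα is a nuclear receptor through which RA acts on DNA.

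The cells were wild-type mouse splenic CD8 T cells, labelled as naive at the start, that had been stimulated through CD3 and CD28 for 24 h with IL-2 and rested in IL-2 for another 24 h. The control cells then received no RA and the treated cells 50 nM RA for 1 h, and chromatin was precipitated with antibodies to RARα or BATF or with normal rabbit IgG, for sequencing (ChIP-seq). The treatment labels name a different interleukin for different libraries, while the growth protocol names IL-2 for all, and whether the IgG cells received RA is not stated. Each list came from 2 pooled alignment files set against the same IgG file, so there was 1 list per condition and no replicate spread, and the differences below were not tested. Values in brackets after a share, a ratio or a median ratio are 95% intervals. For a ratio they cover counting error only, and for a median ratio the spread over pairs. For a share they treat peaks as independent, although many lie at the same gene. The pools held 16424269 (BATF with RA) to 23110180 (BATF control) fragments, and the BATF pool with RA had 71.1% of the fragments of its control, so levels are given as fragments at the peak summit and, for comparisons, as a scaled level, the summit fragments per 1000000 fragments of the pool. All ratios below are of scaled levels, RA to control, unless fold enrichment over IgG is named. Binding is not expression, and the lists do not check the cell type: BATF control peaks were assigned to all 5 CD8 T cell marker genes examined (Cd3e, Cd3g, Cd8a, Cd8b1, Cd5), but also to the B cell genes Ms4a1 and Cd79a, to 1 of 3 myeloid genes (Itgam, not Lyz2 or Csf1r) and to neither Cd4 nor Foxp3.

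BATF peaks were assigned to all 10 genes in both conditions. Among all 21900 protein-coding genes of the RefSeq table, 48.6% had a BATF control peak and 38.3% a BATF peak with RA. Tnfrsf1b had the most, with 12 peaks in the control and 4 with RA, a control number reached by 0.292% of protein-coding genes. Cd28 and Icos had 8 each in the control and 3 and 2 with RA. For Cd226 the numbers were 7 and 2, for Tnfrsf9 5 and 2, for Slamf6 4 and 2, for Cd27 4 and 3 and for Cd44 3 and 2. Tnfrsf18 had 3 and 1, and Tnfrsf4 had 2 and 1, all of which it shared with Tnfrsf18. At least 3 control peaks were assigned to 9 of the 10 genes and at least 3 RA peaks to 3, against 13.0% and 6.20% of all protein-coding genes. High numbers were not particular to these genes. The median number of BATF control peaks was 4.5 at the 10 genes, 4 at 18 other receptors of costimulation and 4 at the 5 CD8 T cell marker genes. With RA the medians were 2, 1 and 3. At each of the 10 genes the list was shorter with RA, and the pool was also smaller.

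**Figure D1:**
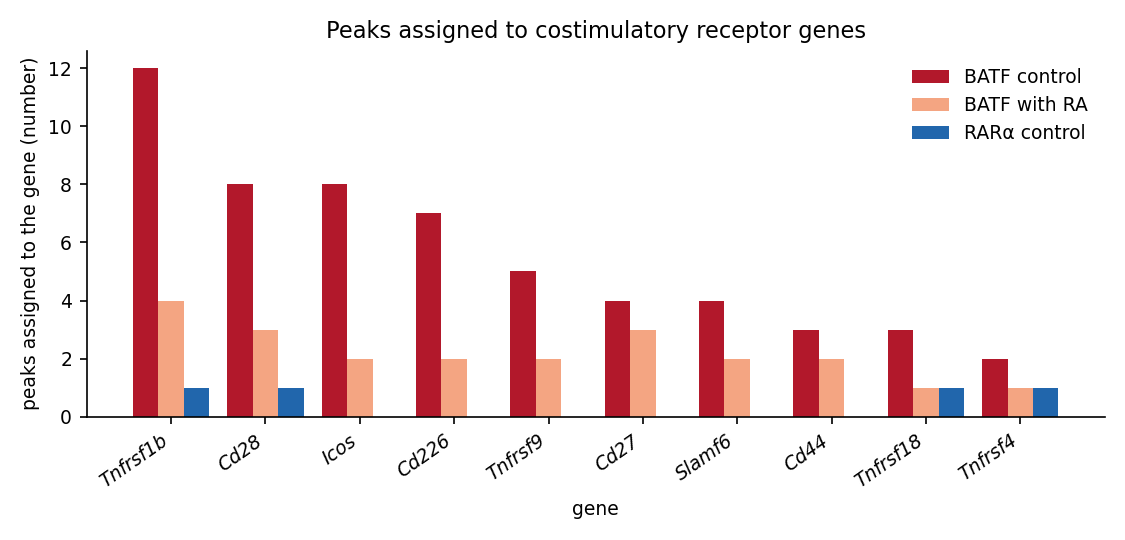
Number of peaks (vertical axis) that the authors' annotation assigned to each of the 10 genes (horizontal axis), in the BATF control list (dark red), the BATF list with RA (light red) and the RARα control list (blue). The RARα list with RA is not drawn because it held 0 peaks at these genes. Control BATF peaks range from 12 at Tnfrsf1b to 2 at Tnfrsf4, and each gene has fewer with RA.

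The annotation can name many genes for 1 intergenic peak, some of them far from it. Of the 56 pairs of a gene and a BATF control peak, 33 lay inside the gene and 42 within 10 kb of it, and the farthest was 94950 bp away. Of the 54 peaks, 15 were classed as promoter (27.8%, 17.6 to 40.9), 16 as intron, 3 as exon and 20 as intergenic (37.0%, 25.4 to 50.4). Over the whole BATF control list, 58.7% of peaks were at promoters and 18.1% were intergenic. The annotation named 38 other genes beside a member, among them Tnfrsf8 (CD30) at 10 peaks, Vps13d at 6, Ctla4 at 4 and Gapdh at 3. All 54 peaks had a q-value of at most 0.05, with a median fold enrichment over IgG of 4.79 (lowest 2.87, highest 23.4), against a median of 5.40 for all control peaks. The 21 peaks with RA had a median of 5.44 (lowest 3.48, highest 19.6), against 5.29 for that list.

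Cd28 encodes the primary costimulatory receptor, the receptor for CD80 and CD86, and lies on chromosome 1 from 60746388 to 60773359 (all positions are in mm10). In the control its BATF peaks formed a series from just before the gene through intron 1 to the last exon, with 1 more peak 3374 bp past the gene. The promoter peak (60745757 to 60748875) had 38 fragments at its summit in the control, and an RA peak within it (60746302 to 60747179) had 24. The scaled levels were 1.64 and 1.46, a ratio of 0.889 (0.510 to 1.52). Intron 1 held the strongest of them (60749133 to 60749627), at 47 fragments without and 28 with RA and fold enrichments of 6.78 and 5.61. The 2 summits were 2 bp apart, and the ratio was 0.838 (0.505 to 1.37). Another intron 1 peak, from 60755671 to 60756157, had 24 fragments in the control. The RA peak that overlapped it, from 60755562 to 60755870, had 17, a scaled level of 1.04 in both pools. Their summits were 326 bp apart and the RA peak ended before the control summit, so the levels are of different positions. The other 5 control peaks had 18 to 24 fragments and no overlapping RA peak. They include a peak from 60744419 to 60744716 in a LINE repeat and a peak in the last exon from 60771764 to 60772035.

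Cd28 also had 1 of the 3 RARα control peaks, the only one of them whose nearest protein-coding gene was a member. It lay on the 5' side of the gene, 43244 bp away, from 60702586 to 60703144. Its summit had 13 fragments and a fold enrichment of 2.81, below the median of 3.09 of the whole list, and its -log10 p was 4.14 where the cutoff was 3. The nearest BATF control peak was 41275 bp away, and the nearest RARα peak of the RA list 1084209 bp away.

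Icos encodes the inducible relative of CD28 and lies on the same chromosome, beyond Ctla4, from 60960773 to 61000322. Only 1 of its 8 BATF control peaks lay within the gene. It was classed as promoter, from 60977586 to 60978230, and had 35 fragments (fold enrichment 5.67), and the nearest RA peak was 63352 bp away. The gene's strongest peaks were intergenic and lay past its far end. The peak from 61050391 to 61050657, 50069 bp from the gene, had 57 fragments (fold enrichment 9.55) in the control, and 26 (5.87) with RA. The scaled levels were 2.47 and 1.58, the lowest ratio among the overlapping pairs at these genes, 0.642 (0.387 to 1.04), and the interval still reached 1. Its neighbour from 61045849 to 61046770 had 35 and 21 fragments (ratio 0.844, 0.467 to 1.49). Between them and the gene, the peak from 61026512 to 61027038 had 31 fragments (fold enrichment 8.19) in the control, and the nearest RA peak was 19006 bp away.

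The other 4 Icos peaks were annotated to Ctla4 as well and lay 19571 to 61209 bp from Icos, 3 of them nearer to Ctla4. Ctla4, the inhibitory receptor for the same ligands as CD28, had stronger BATF peaks than its 2 costimulatory neighbours in both conditions. Its exon peak, from 60913106 to 60914238, had 168 fragments (fold enrichment 20.9) in the control and 114 (19.0) with RA.

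**Figure D2:**
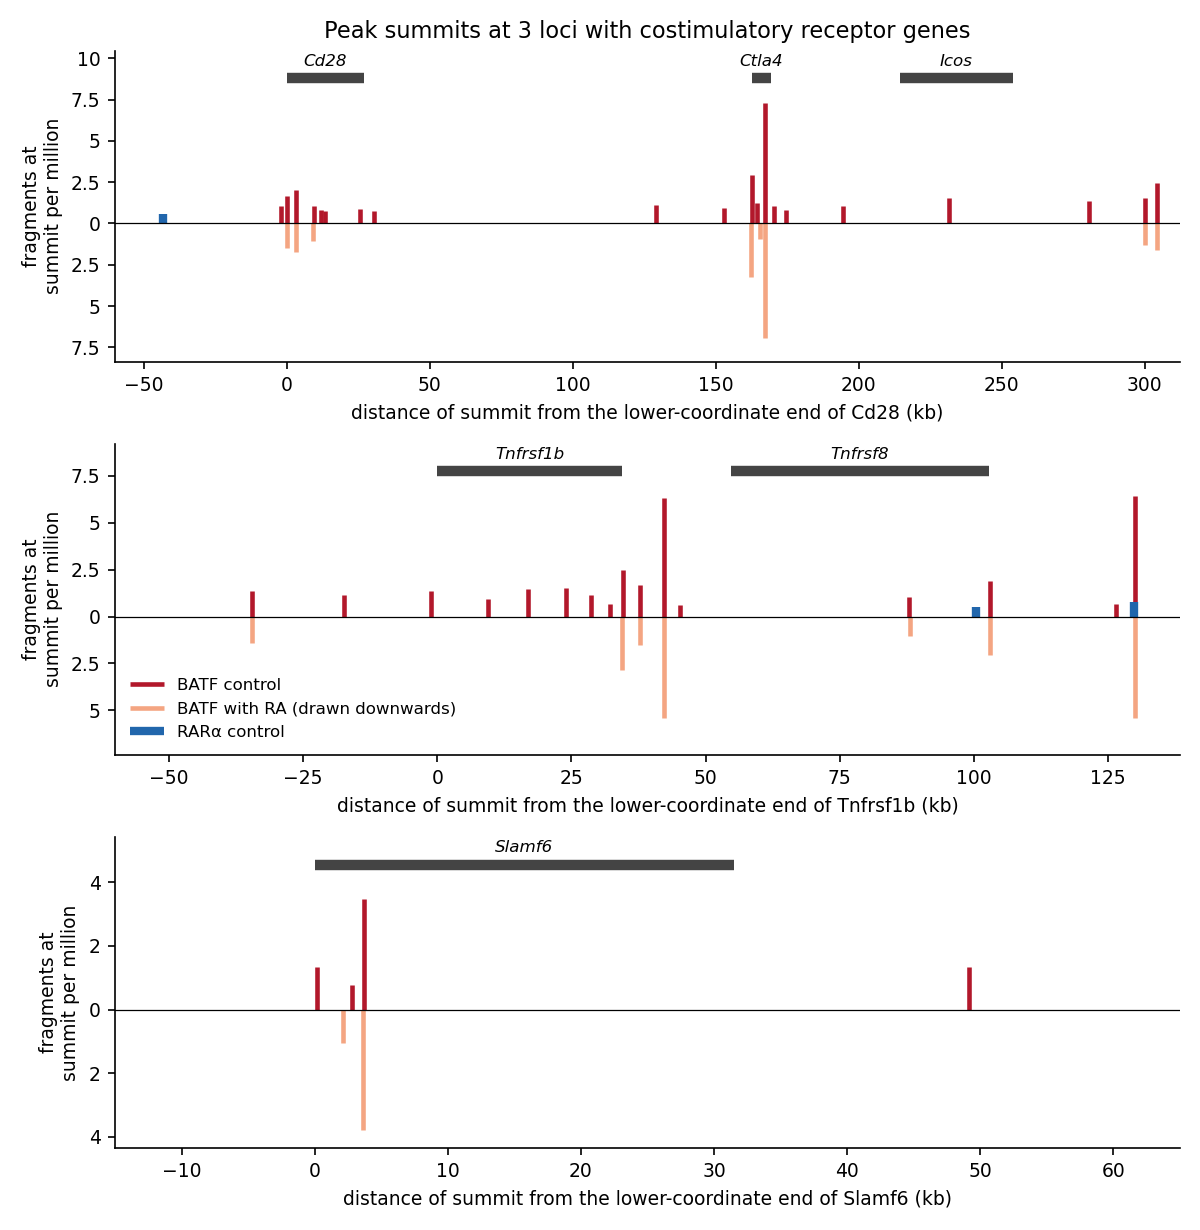
Position and level of peak summits at the Cd28-Ctla4-Icos, Tnfrsf1b and Slamf6 loci. The horizontal axis is the distance in kb from the lower-coordinate end of the first gene, the vertical axis is the scaled level (summit fragments per 1000000 fragments of the pool), grey bars are RefSeq genes, BATF control and RARα control lines point up, and BATF lines with RA point down. The tall lines recur at the same place in both BATF lists, and the short control lines across Tnfrsf1b mostly have no line below them. The 2 tallest lines at Tnfrsf1b are 6.32 and 6.40 in the control and 5.42 each with RA.

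Tnfrsf1b encodes TNFR2, the TNF receptor of activated T cells, and lies on chromosome 4 from 145212368 to 145246870. It had the 2 highest BATF levels of the 10 genes. A peak from 145254392 to 145255170, 7522 bp from the gene on its promoter side, had 146 fragments (fold enrichment 16.1) in the control and 89 (11.0) with RA. The scaled levels were 6.32 and 5.42, a ratio of 0.858 (0.651 to 1.12). The second, from 145341820 to 145342712, had 148 fragments (fold enrichment 23.4), rank 167 of the 15812 control peaks, and 89 (19.6) with RA (ratio 0.846, 0.643 to 1.11). It lay 94950 bp from Tnfrsf1b and 26656 bp from Tnfrsf8, the nearest protein-coding gene. At the promoter itself, from 145246224 to 145247261, the levels were 57 fragments in the control and 47 with RA, or scaled levels of 2.47 and 2.86 (ratio 1.16, 0.771 to 1.74).

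The remaining Tnfrsf1b peaks were weaker. The peak from 145249782 to 145250488 had 39 and 25 fragments (ratio 0.902, 0.523 to 1.53). The other 8 control peaks had 14 to 35 fragments and no overlapping RA peak. Of these, 4 lay in introns, with 22 to 35 fragments, and the fold of the strongest, from 145236035 to 145236650, was 5.08. The local IgG level at the 12 control peaks ranged from 1.03 to 3.43 times its background, against a median of 1.56 over the list.

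The RARα control peak assigned to Tnfrsf1b, from 145342080 to 145342408, lay inside the distant BATF peak near Tnfrsf8. It had 17 fragments (fold enrichment 2.59), and the IgG level there was 2.09 times its background, against a median of 1.07 over the RARα control list. The BATF summit at this place had 148 fragments. This was the only one of the 3 RARα control peaks with a BATF control peak within 5 kb (33.3%, 6.15 to 79.2), whereas over the whole RARα control list 61.9% had one.

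Tnfrsf4 and Tnfrsf18 encode OX40 and GITR and are neighbours on chromosome 4, from 156013595 to 156016613 and from 156026322 to 156028894. The Tnfrsf18 promoter had a BATF control peak from 156026159 to 156026755 with 26 fragments (fold enrichment 5.25), and no RA peak overlapped it. A peak assigned to both genes, from 156031754 to 156032529, lay 2860 bp from Tnfrsf18 and 2306 bp from Ttll10, its nearest gene, and had 19 fragments in the control and 12 with RA (scaled levels 0.822 and 0.731, ratio 0.889, 0.393 to 1.93). The other peak assigned to both, from 156077154 to 156077444, lay 48260 bp from Tnfrsf18 and 60541 bp from Tnfrsf4, with 20 fragments (fold enrichment 4.29) in the control and no RA peak within 5 kb. No peak assigned to Tnfrsf4 lay within 10 kb of it. By distance alone, 3 BATF control peaks named for other genes did, at Sdf4, at Gm10560 and at the Tnfrsf18 promoter.

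The third RARα control peak was assigned to both genes and to 10 others, including Ttll10, Agrn and the microRNA genes Mir200a, Mir200b and Mir429. It ran from 156067552 to 156068158, 38658 bp from Tnfrsf18, 50939 bp from Tnfrsf4 and 16735 bp from Ttll10, the nearest protein-coding gene. It was the strongest of the 3, with 25 fragments, a fold of 4.36 and a -log10 p of 10.6, and the only one that also met the BATF cutoff of 1e-05 or a q-value of 0.05. The nearest BATF control peak, the one from 156077154, was 8996 bp away.

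Tnfrsf9 encodes 4-1BB, which is induced on activated CD8 T cells, and lies on chromosome 4 from 150920155 to 150946104. It was the only gene with a level more than 1.5-fold higher with RA at an overlapping pair. The intron peak from 150924287 to 150925203 had 30 fragments (fold enrichment 5.51) in the control and 33 (7.39) with RA. The scaled level with RA was 2.01, and the ratio of 1.55 had an interval (0.915 to 2.63) that included 1, and the fold enrichment differed by less than 1.5-fold. At the inner promoter, from 150927560 to 150928165, the levels were 30 and 22 fragments (ratio 1.03, 0.567 to 1.85), with folds of 7.66 and 7.28. The other 3 control peaks had 20 to 34 fragments and no overlapping RA peak. One of them, from 150921157 to 150921622, was at the outer promoter with a fold of 5.43.

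Cd27 encodes the receptor of CD70, is carried by naive and memory T cells and lies on chromosome 6 from 125232620 to 125237136. The promoter peak from 125236572 to 125239005 had 36 fragments (fold enrichment 7.87) in the control. The RA peak that overlapped it had 17 fragments (fold enrichment 3.73), and the ratio was 0.664 (0.350 to 1.21). The RA summit lay outside the control peak, 423 bp from its summit, so these 2 levels are of different positions. Beyond the promoter peak, 3147 bp from the gene, a broad control peak from 125240283 to 125242054 with 31 fragments overlapped 2 RA peaks. The one with the nearer midpoint had 15 fragments (ratio 0.681, 0.342 to 1.30), and the one whose summit was 25 bp from the control summit had 26 (ratio 1.18, 0.673 to 2.05). Which of them is taken thus decides the direction at this site. The 2 other control peaks, with 22 and 28 fragments, lay within Cd27 and were annotated to the microRNA gene Mir8113 as well. A control peak and an RA peak annotated to Tapbpl and Mir8113 but not to Cd27 also overlapped the gene, with 38 and 18 fragments.

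Slamf6, which encodes a homophilic receptor of the SLAM family, lies on chromosome 1 from 171917458 to 171948958. Its intron 1 peak, from 171920636 to 171922109, had 80 fragments (fold enrichment 11.4) in the control and 62 (10.4) with RA. The scaled levels were 3.46 and 3.77 (ratio 1.09, 0.770 to 1.54), so the difference was within counting error. Only the 2 strongest Tnfrsf1b peaks had a higher control level among the 54. The RA list had 1 further peak, from 171919383 to 171919839 with 17 fragments, which lay 218 bp from a weak control peak and 846 bp from the promoter peak (31 fragments). An intergenic control peak 17313 bp from the gene had 31 fragments over an IgG level of 3.43 times its background and a fold of 2.87.

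Cd226 encodes DNAM-1, the receptor of CD155 and CD112, and lies on chromosome 18 from 89176954 to 89272232. Its 7 control peaks were all within the gene. The strongest, from 89206125 to 89207577 and classed as exon, had 36 fragments (fold enrichment 6.05), and 2 RA peaks of 20 and 17 fragments lay within it. The ratio at the nearer was 0.782 (0.429 to 1.39). The other 6 had 19 to 30 fragments, 2 of them at the promoter with folds of 3.46 and 4.56, and none overlapped an RA peak.

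Cd44, the hyaluronan receptor that rises on activation and stays high on memory cells, lies on chromosome 2 from 102811141 to 102901669. The peak in its last exon, from 102812852 to 102813165, had 32 fragments (fold enrichment 6.52) in the control and 24 (7.91) with RA (scaled levels 1.38 and 1.46, ratio 1.06, 0.595 to 1.85). The promoter peak from 102901255 to 102901604, with 25 fragments (fold enrichment 5.14), and an intron peak from 102867403 to 102867892, with 20, had no RA peak within 5 kb. A different intron peak, from 102873925 to 102874217, was called with RA at 16 fragments (fold enrichment 4.38). It was the only 1 of the 21 RA peaks with no control peak within 5 kb, which held for 3.75% of all BATF peaks with RA.

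Across the 10 genes, 17 of the 54 BATF control peaks were overlapped by an RA peak and 15 more had one within 5 kb. No RA peak within 5 kb was found for 22 (40.7%, 28.7 to 54.0), against 30.1% of all control peaks. No overlapping RA peak was found for 37 (68.5%, 55.3 to 79.3), against 45.6%. Both intervals treat the 54 peaks as independent, although 12 were assigned to Tnfrsf1b and 8 each to Cd28 and Icos. They are thus too narrow for a comparison of these genes with the list, which was not tested. By class, an RA peak overlapped 4 of 15 promoter peaks, 4 of 16 intron peaks, 7 of 20 intergenic peaks and 2 of 3 exon peaks, against 61.2%, 41.3%, 47.9% and 48.9% over the list. Overlapped peaks were the stronger ones, with a median of 36 fragments (lowest 19, highest 148) and a median fold of 6.52, and the others had medians of 22 fragments (lowest 14, highest 35) and 4.29. Over the whole list the split was similar, with medians of 39 fragments and 6.72 for overlapped peaks and 24 fragments and 4.52 for the others. In the opposite direction, 19 of the 21 RA peaks overlapped a control peak and 2 did not, against 6.39% of the RA list.

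At the 17 overlapping pairs the scaled level was lower with RA in 12 (70.6%) and the fold enrichment in 14 (82.4%), against 77.1% and 75.5% of all overlapping pairs. The 12 include the broad Cd27 peak, whose ratio was above 1 by nearest summit. The median ratio of the level was 0.889 (0.838 to 1.03), against 0.838 over all 8605 overlapping pairs. As fold enrichment it was 0.840 (0.698 to 0.913), against 0.827. As pileup over the IgG level it was 0.893 (0.704 to 0.935), against 0.878. A level ratio past 1.5-fold lower was seen in 2 pairs (Icos and Cd27) and past 1.5-fold higher in 1 (Tnfrsf9), against 17.7% and 0.965% of all pairs. None of the 17 intervals of the level ratio at single pairs excluded 1. The summits lay 2 to 1090 bp apart, with a median of 30 bp, and 11 of the 17 pairs were within 50 bp. In the Cd27 pair past 1.5-fold lower they were 423 bp apart, at different positions. When each control peak was instead paired with the nearest RA peak at most 5 kb away, 32 pairs gave a median of 1.07 (0.858 to 1.33), with 2 past 1.5-fold lower and 7 past 1.5-fold higher, against 15.2% and 9.03% of all such pairs. That value mixes in weak control peaks set against stronger RA peaks of other sites, such as a ratio of 8.94 at a Tnfrsf1b peak of 14 fragments.

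**Figure D3:**
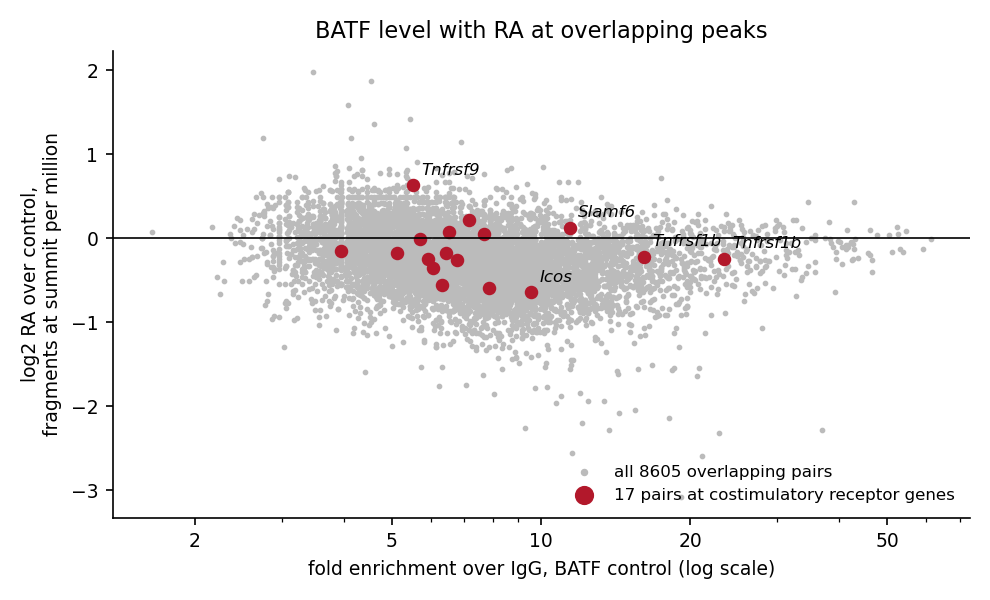
Log2 of the RA to control ratio of scaled levels (vertical axis) against the control fold enrichment over IgG (horizontal axis, log scale) for overlapping BATF peaks, with all 8605 pairs in grey and the 17 at costimulatory receptor genes in red. The red points lie within the grey cloud, 12 of them below 0, with Tnfrsf9 highest and Icos lowest.

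Absence from the RA list does not give the level that remained. If the summit signal were the same per fragment, 50 of the 54 control peaks would still pass the BATF cutoff at the depth of the RA pool, including all 22 with no RA peak within 5 kb. Over the whole list 14800 of 15812 would pass, and 88.1% of those with no RA peak within 5 kb. This projection scales the observed control count and leaves out counting error and the choice of peaks by their control call. Some of the 22 pass only narrowly, such as the Cd226 peak from 89197233, with a projected -log10 p of 5.23 where the cutoff is 5. Such peaks could go uncalled at an unchanged level. The highest level that could stay uncalled at the local IgG level was then set against the control level. For the 37 control peaks without an overlapping RA peak, this ceiling was 0.454 to 1.02 times the control level, with a median of 0.767. It was below the control level beyond counting error at 1 of the 37, the Icos peak from 61026512 to 61027038, where at most 10 fragments could stay uncalled against 31 in the control. Over all control peaks without an overlapping RA peak this held for 9.17%. A region shorter than the fragment length is also not called, which this ceiling leaves out.

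**Figure D4:**
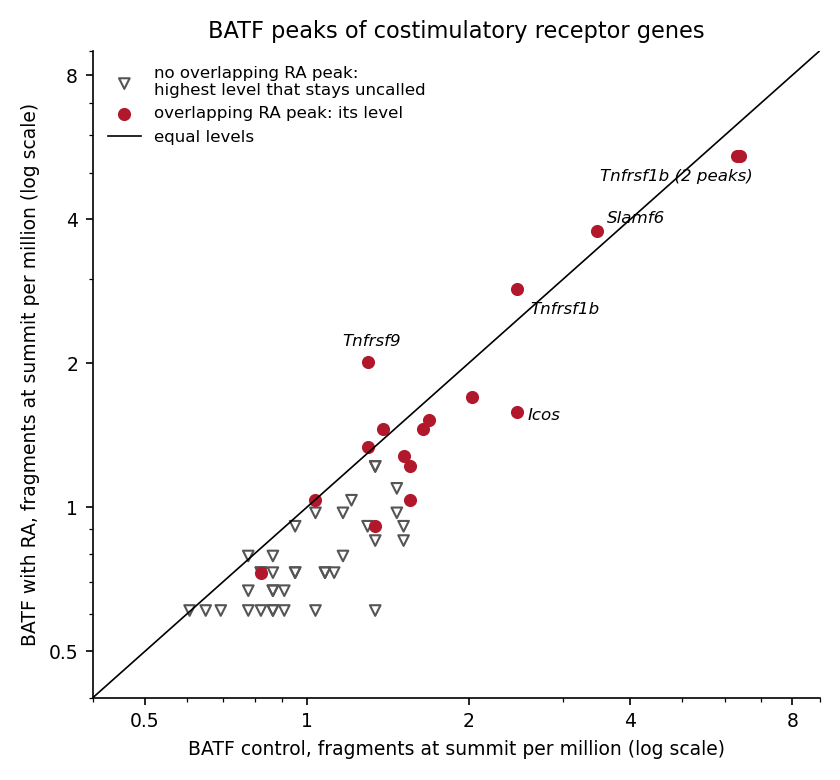
BATF level with RA against BATF level in the control at the 54 control peaks of the 10 genes, both as summit fragments per 1000000 fragments of the pool on log axes. Filled points are the 17 peaks with an overlapping RA peak, open triangles mark the highest RA level that would not have been called at the other 37, and the line marks equal levels. The triangles lie at 0.454 to 1.02 times the control level, with a median of 0.767.

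The same ceiling applies to the 3 RARα control peaks, for which the RA list held no peak within 5 kb. This was so for 89.8% of all RARα control peaks. At Cd28 up to 10 fragments could stay uncalled with RA against 13 in the control (ratio 0.775, 0.304 to 1.91), and at the peak near Tnfrsf8 up to 14 against 17 (0.830, 0.379 to 1.79). At the peak beyond Tnfrsf18 it was 12 against 25 (0.484, 0.221 to 0.999), the only one of the 3 whose interval lay below 1. This held for 7.83% of all RARα control peaks without an overlapping RA peak. Here too the intervals leave out that the peaks were taken for a call in the control and none with RA. A RARα control peak was thus assigned to 4 of the 10 genes, against 7.18% of protein-coding genes, and a RARα peak with RA to 0, against 3.19%. Tnfrsf4 and Tnfrsf18 shared 1 of the 3 control peaks, and only 1 of the 3 had a member as its nearest gene. None of the 3 peaks lay within 10 kb of a member gene or at a promoter.

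Among 44 other genes of costimulation, 37 had a BATF control peak, 33 a BATF peak with RA, 12 a RARα control peak and 1 a RARα peak with RA. Over all protein-coding genes the shares were 48.6%, 38.3%, 7.18% and 3.19%. By role, BATF control peaks were found at 16 of 18 other receptors, 6 of 10 ligands and 15 of 16 adapters and kinases. The control peaks of highest fold were at Il2ra, the high-affinity IL-2 receptor chain (27.2), at Tnfrsf8 (23.4, the peak also assigned to Tnfrsf1b) and at Tnfsf4, the ligand of OX40 (22.5, at 85370 bp from the gene), with 26.3, 19.6 and 14.7 at the same peaks with RA. A RARα control peak was assigned to 8 of the 18 other receptors, 1 of the 10 ligands and 3 of the 16 adapters and kinases. RARα control peaks were assigned to Tnfrsf8, Ly9, Slamf7, Cd48, Cd5, Itgal, Cd69, Il2ra, Pvr, Traf1, Fyn and Prkcq. Ly9, Slamf7 and Cd48 shared 1 peak, and 1 of the 2 Tnfrsf8 peaks was the one also assigned to Tnfrsf1b. The strongest of these RARα control peaks was in an intron of Prkcq, the kinase that couples CD28 to NF-κB. It ran from 11203055 to 11204408 on chromosome 2, with 21 fragments (fold enrichment 5.67), and overlapped a BATF control peak. At Traf1, an adapter of 4-1BB and TNFR2, 2 RARα control peaks with folds of 4.64 and 3.25 lay 2621 and 1288 bp from the gene, and both overlapped BATF control peaks. Itgal was the only one with a RARα peak in both lists, at 13 fragments each and 34840 bp from the gene in the control.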

How the data were processed

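Per the file headers and the study's methods, paired-end reads were aligned to mm10 with Bowtie2, deduplicated, and peaks were called with MACS 2.2.7.1 on 2 pooled alignment files against 1 IgG file, at a p-value cutoff of 0.001 (RARα) or 1e-05 (BATF). HOMER is also named in the submitters' processing notes. The deposited pileup is a signal, the fragments at the summit, scaled by 0.9875 in the BATF control list and restored to whole fragments here. The deposited fold enrichment is a ratio of pileup plus 1 to local IgG level plus 1, from which the IgG level was recovered. The deposited p-values and q-values are on the −log10 scale. That column is filled although the headers say no q-value was computed, so it served only as an alternative.

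Peaks were assigned to members by the authors' gene column, and distances were measured to genes of the RefSeq table for GRCm38.p6, which has no strand. Peaks within 5 kb counted as shared. Levels were compared as summit fragments per 1000000 fragments of the pool, with exact conditional intervals, shares with Wilson intervals and medians with order-statistic intervals. IgG levels are relative to the level that an even spread of fragments over the genome would give. The ceiling on uncalled levels used the Poisson p of the peak caller. Pairing and ratios were tested on simulated data. The simulated partners lay close to their control peaks, with no rival peaks added nearby, so the choice among several RA peaks was not tested. Alternatives covered thresholds, gene assignment, overlap, pairing and the measure. Software was scipy 1.17.1, pandas 2.3.3, matplotlib 3.10.9 and numpy 2.4.6 under Python 3.11.15. Members and gene lists were chosen with earlier results of these data known. Every member was covered, with its peaks described singly or by their range. Other costimulation genes were named for a RARα peak or for the 3 highest BATF control folds. Ctla4, Mir8113 and other neighbours were named as genes sharing or adjoining a peak. Sequence and motif content were not analysed here. One marker gene is not reported here.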

Additional observations from a re-analysis of the deposited data

How the results depend on the processing

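No paired analysis was possible because each condition has a single pooled list. Of 37 values recomputed under an alternative, 21 stayed within 1.5 times the count or within the interval, 12 moved and 4 changed direction. The control-depth projection, the 10 kb limit on shared peaks, single use of each RA peak and pairing by summit were chosen after seeing the data. The 3 RARα control peaks became 1 at a p-value of at most 1e-05, at a q-value of at most 0.05, with no other gene named or with a member as the nearest gene, and 0 at a fold enrichment of at least 5 or within 10 kb of the gene. The share of RARα control peaks near BATF was 0% at a p-value of at most 1e-05, where 1 peak is left. A fold enrichment of at least 5 left 26 BATF control and 12 BATF RA peaks, and 34 BATF control peaks named no other gene. The share of BATF control peaks with an RA peak was 59.3% within 5 kb, 40.7% within 1 kb and 31.5% with overlap. The median RA to control level of 1.07 over pairs within 5 kb fell below 1 with overlapping pairs (0.889, also by nearest summit), with a control fold of at least 5 (0.889) and with each RA peak used once (0.902). It stayed above 1 as fold enrichment (1.08) and over the IgG level (1.13) at the same 32 pairs. At the 17 overlapping pairs those measures had medians of 0.840 and 0.893. The 4 settings that changed direction use fewer pairs than the 32 within 5 kb.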
